A study of Homo sapiens with 2 samples.

Results

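Receptor protein tyrosine phosphatases are membrane proteins with an outer part that binds ligands or neighbouring cells and an inner part that, in most of them, removes phosphate from tyrosines. The 10 genes described here are PTPRF, PTPRS and PTPRD of the LAR family, PTPRK, PTPRM and PTPRT of the type IIb family, PTPRZ1 and PTPRG with a carbonic anhydrase-like domain, PTPRJ and PTPRN2. They are 10 of 20056 protein-coding genes of RefSeq. The genes were chosen by family, with the values of this peak list already known. PTPRF was picked for the height of its peak, which the list labels promoter, and PTPRZ1 because it is a glioma gene. All values below are therefore descriptions, and no test was made on them.

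Peaks came from T98G, an established human glioblastoma cell line, treated with crotonate for 48 h, at 10 µM by the deposited design text. The authors made 1 chromatin immunoprecipitation (ChIP) library with an antibody against crotonylated lysine on any protein (pan-Kcr), beside 1 input library of the same treated cells, chromatin without immunoprecipitation. Both libraries carry the treatment, untreated cells are not analysed here, and 1 ChIP library gives no measure of the spread between replicates. A peak list holds no expression values, so the identity of the cells was not checked against marker genes.

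Lysine crotonylation is a short-chain acyl mark on histones and other proteins, and on histones it is known from promoters and enhancers of active genes. In the brain the LAR family phosphatases bind heparan and chondroitin sulfate proteoglycans and organise synapses. PTPRZ1 is a proteoglycan of glial precursors whose ligand is pleiotrophin, and the type IIb members hold cells together by binding their own kind.

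A peak was tied to a gene when the list names the gene as nearest, or when the annotation of the peak names the gene's Ensembl identifier. By this rule 29 of 10041 peaks belonged to the 10 genes, 17 of them by symbol and 12 by identifier alone. Each of the 10 genes had at least 1 peak, whereas 19.3% of all protein-coding genes did. The genes are long, and most long genes have a peak: all 6 members of 500 kb or more had one, beside 84.1% of all genes of that length, and all 4 members of 100 to 250 kb had one, beside 39.5%. These 4 include PTPRF, picked for its peak, and PTPRZ1, whose only peak lies outside the gene. Nothing is therefore read from these shares. The peak list has many low peaks. None of its peaks had a q under 0.05, and the smallest q at a member was 0.266, at PTPRF.

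Promoter sequence is shown for 3 members that stand for the 3 situations met here: PTPRS with a peak beside its start, PTPRF with a tall peak inside the gene, and PTPRZ1 with no peak inside. Each window runs from 250 bases before to 50 bases after a transcription start of RefSeq on GRCh38.p14 and is written 5′ to 3′ on the strand of the gene, with CG dinucleotides, which can be methylated, in capitals. The PTPRS window is chr19:5340763-5341062 (minus strand), the PTPRF window chr1:43530633-43530932 (plus strand) and the PTPRZ1 window chr7:121872911-121873210 (plus strand).
PTPRS: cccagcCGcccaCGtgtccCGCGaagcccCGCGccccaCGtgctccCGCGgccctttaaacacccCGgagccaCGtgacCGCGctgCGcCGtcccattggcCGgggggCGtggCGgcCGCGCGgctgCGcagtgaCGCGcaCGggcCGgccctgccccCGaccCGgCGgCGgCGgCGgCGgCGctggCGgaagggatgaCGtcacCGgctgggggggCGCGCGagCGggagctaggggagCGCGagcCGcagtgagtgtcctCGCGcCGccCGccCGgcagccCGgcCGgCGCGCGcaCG
PTPRF: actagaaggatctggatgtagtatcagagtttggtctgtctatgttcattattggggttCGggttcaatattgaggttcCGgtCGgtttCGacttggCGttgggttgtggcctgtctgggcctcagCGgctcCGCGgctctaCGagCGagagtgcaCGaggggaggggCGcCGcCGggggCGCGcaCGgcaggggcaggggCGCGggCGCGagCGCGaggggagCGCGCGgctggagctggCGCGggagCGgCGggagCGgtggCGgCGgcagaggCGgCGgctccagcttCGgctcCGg
PTPRZ1: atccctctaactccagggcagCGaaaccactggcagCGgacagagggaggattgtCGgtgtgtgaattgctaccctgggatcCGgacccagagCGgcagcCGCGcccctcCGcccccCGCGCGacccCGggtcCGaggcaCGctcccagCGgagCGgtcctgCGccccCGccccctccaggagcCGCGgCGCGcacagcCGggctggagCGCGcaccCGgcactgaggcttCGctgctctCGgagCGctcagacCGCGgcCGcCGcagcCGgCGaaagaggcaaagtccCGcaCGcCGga

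The PTPRS window held 55 CG, more than 99.6% of the 35116 promoter windows of RefSeq, whose median was 14. The PTPRF window held 37 and the PTPRZ1 window 38, above 88.7% and 90.1% of all windows. Over the 11 windows found for 8 members, PTPRF, PTPRG, PTPRK, PTPRZ1, PTPRD, PTPRM, PTPRS and PTPRT, the count of CG ran from 2, at an inner start of PTPRM, to 55. The motif GGGCGG or its reverse complement CCGCCC, bound by SP family factors, was found in 7 of these 11 windows and in 45.0% of all windows. It occurred 3 times in the PTPRS window, 2 times in that of PTPRZ1 and not in that of PTPRF. None of the 11 windows overlapped a peak, and 0.333% of all windows did. A match to such letters is a description of the window and not a binding site.

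PTPRF, the receptor LAR, which binds heparan sulfate proteoglycans and acts at cell contacts and synapses, had 1 peak on chromosome 1 from 43534900 to 43535403. Its fold enrichment was 5.09, a ratio of the ChIP to the background of the peak caller. The number of ChIP fragments stacked at the summit, recovered from the deposited fold enrichment and p, was 5 (exact 95% Poisson interval 1.62 to 11.7) over a background of 0.179, with a p of 3.95e-08 in the authors' list. This is a tall peak in a list where 13 of 10041 peaks held 5 or more fragments. It shared its height with COPG1 and 1 other peak, 4 peaks were higher, the nearest of them at 5.15, and the next lower one stood at 4.87. It was also long, 504 bp, at percentile 97.1 of the list, whose median was 315 bp. These values chose the gene.
The list calls the PTPRF peak a promoter peak because it lies 2795 bp upstream of the start of a processed transcript that begins inside the gene. From the outermost RefSeq start of PTPRF its centre lay 13.1 kb downstream, 12.9% of the way along the gene of 101.616 kb, and from the start of the window printed above 4.27 kb downstream. The peak before it, nearest to HYI, ended 55.4 kb away at 43479497 with a fold enrichment of 3.38, and the one after, nearest to ARTN, began 401.5 kb away at 43936876 with 2.70. Over the whole list the median gap between neighbouring peaks was 166.0 kb, so the gap before the PTPRF peak was shorter and the gap after it longer than usual.

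PTPRS, the neuronal receptor for chondroitin and heparan sulfate that restrains axon growth, had 4 peaks and was the densest member, but each of its peaks was low, with 2 fragments. The peak at its start lay on chromosome 19 from 5340077 to 5340482 with a fold enrichment of 2.73, 0.533 kb downstream of the gene's outermost start. An exonic peak followed 67.3 kb from the start, from 5273345 to 5273604, with a fold enrichment of 2.68 in exon 4 of 31. Both remaining peaks, from 5195630 to 5195949 and from 5187616 to 5187890, had a fold enrichment of 2.73 in intron 29 of 30. They lie 9.72 and 17.8 kb beyond the end of PTPRS in RefSeq, inside a longer transcript of 182.309 kb that the list uses. Counted by RefSeq span, PTPRS therefore had 2 peaks. The list names PTPRS as nearest gene only for the peak at its start. By nearest symbol alone PTPRS thus had 1 peak and was not the densest member.

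PTPRD, a LAR family receptor that organises synapses and is often deleted or silenced in glioblastoma, is the longest of the 10 genes with 2298.76 kb. It had 1.74 peaks per Mb. Its 4 peaks all had 2 fragments. The 3 inside the gene, on chromosome 9 from 10277683 to 10277962, from 10047895 to 10048286 and from 9012125 to 9012481, each had a fold enrichment of 2.73 and lay in introns, 335.2, 564.9 and 1600.7 kb from the start. The other lay from 8283750 to 8284054, 30.3 kb beyond the end of the gene in an intergenic region, with a fold enrichment of 2.53. The longest stretch without a peak between these 4 was 1035.4 kb, and none lay near the gene's start: the next peak in the upstream direction began at 12085263.

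The type IIb genes differed among themselves. PTPRK, a receptor that acts on EGFR and beta-catenin, had 2 peaks over 551.815 kb. The taller, of 3 fragments, lay in intron 3 of 29 on chromosome 6 from 128265419 to 128265685 with a fold enrichment of 3.39. The other, from 128067147 to 128067528, with 2 fragments and a fold enrichment of 2.73, is labelled promoter through a processed transcript of 5612 bp, yet it lay 453.3 kb downstream of the gene's outermost start.
PTPRM, which clusters at adherens junctions with cadherins, had 3 peaks, all in introns of the middle part of the gene, 30.6 to 63.4% of the way along its 839.541 kb. Their fold enrichments were 2.68 on chromosome 18 from 7823996 to 7824315, 2.73 from 7923139 to 7923404 and 3.63 from 8099406 to 8099732. The last of these, in intron 11 of 30, held 3 fragments and the others 2.
PTPRT, which acts on STAT3 and paxillin and is mutated in colorectal cancer, had 7 peaks on chromosome 20, the most of the 10 genes. Of all protein-coding genes, 26 had 7 or more, and on chromosome 20 MACROD2 had 9. A promoter label was given to the peak from 42793494 to 42793782, with 3 fragments and a fold enrichment of 3.39, which lay 2027 bp upstream of an inner transcript and 396.3 kb from the gene's outermost start. Single peaks of 2 fragments lay in intron 13 of 30 from 42274207 to 42274582, at 2.53, and in intron 2 of 30 from 42853334 to 42853634, at 2.61.
The other 4 peaks of PTPRT stood close together in the first intron, within 26.4 kb, between 157.4 and 183.3 kb from the start. From the gene's start inward they had fold enrichments of 2.54 (43032283 to 43032802), 4.24 (43020360 to 43020650), 2.54 (43010347 to 43010662) and 3.53 (43006387 to 43006737), with 2, 4, 2 and 3 fragments. On chromosome 20 the median gap between neighbouring peaks was 88.6 kb, and over the whole list 166.0 kb. Of 10041 peaks, 12 lay in a group of 4 or more within such a length, 8 of them on chromosome 20, and these 4 are among them. This group was singled out after its values were seen. Its recovered backgrounds were 0.134 to 0.180, and the mean over chromosome 20 was 0.169. The list ties these 4 peaks to the RNA genes PTPRT-AS1 and RN7SKP100 as nearest genes, and only their annotation names PTPRT. A further peak inside the RefSeq span of PTPRT, from 42067383 to 42068094 with a fold enrichment of 2.54, is intergenic in the list and was not counted.

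PTPRZ1, the pleiotrophin receptor of glial precursors and glioma cells, had no peak inside its 188.876 kb. A count of 0 allows up to 15.9 peaks per Mb there, taking 3 counts as the limit, so a shortage of peaks relative to other genes was not detectable. Its 1 assigned peak lay on chromosome 7 from 122064984 to 122065264, 3.09 kb beyond the end of the gene, with 2 fragments and a fold enrichment of 2.54. Upstream the next peak, nearest to LINC02476, ended at 119843774, so that 2221.2 kb lay between them. Of 636 gaps between peaks on chromosome 7, 2 were at least this long, this one included, and the median was 157.0 kb. These 2 gaps made up 3.35% of the summed gap length of the chromosome. A gene falls more readily into a long gap than into a short one, so nothing is read from the length of this gap.
PTPRG, a receptor for contactins that carries a carbonic anhydrase-like domain as PTPRZ1 does, had 1 peak, in intron 2 of 29 on chromosome 3 from 61868324 to 61868611. It held 4 fragments over a background of 0.179, with a fold enrichment of 4.24, next to PTPRF among the 29 peaks and level, to 2 decimals, with the highest peak of PTPRT. The list names a ribosomal protein pseudogene, RPL10AP6, as nearest gene and does not pair the Ensembl identifier of the intron with a symbol. The peak was tied to PTPRG because PTPRG is the only protein-coding gene of RefSeq whose span holds it, 306.9 kb from the start. It stood alone between peaks nearest to FHIT and CADPS, which were 1580.6 kb apart, and its q was 0.473.

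PTPRJ, a receptor with fibronectin repeats that acts on growth factor receptors, had a low peak at its start and a taller one further in. The peak at the start lay on chromosome 11 from 47981704 to 47982020, 1.30 kb from the gene's outermost start, with 2 fragments and a fold enrichment of 2.67. The other lay in intron 6 of 24 from 48126854 to 48127249, with 3 fragments and a fold enrichment of 3.64.
PTPRN2, a catalytically weak phosphatase of secretory granules and an autoantigen in type I diabetes, had 4 intronic peaks and none at a promoter. The tallest, of 3 fragments, lay in the first intron on chromosome 7 from 158547536 to 158547884, 40.1 kb from the start, with a fold enrichment of 3.51. A close pair lay in intron 3 of 21, from 158261704 to 158261964 at 2.70 and from 158259241 to 158259548 at 2.68, 2.16 kb apart. Of all gaps between neighbouring peaks, 0.679% were that short. The pair was singled out after its values were seen, and nothing is read from its closeness. The fourth, in intron 10 of 21 from 158078366 to 158078723, had a fold enrichment of 2.69. These last 3 held 2 fragments each.

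**Figure D1:**
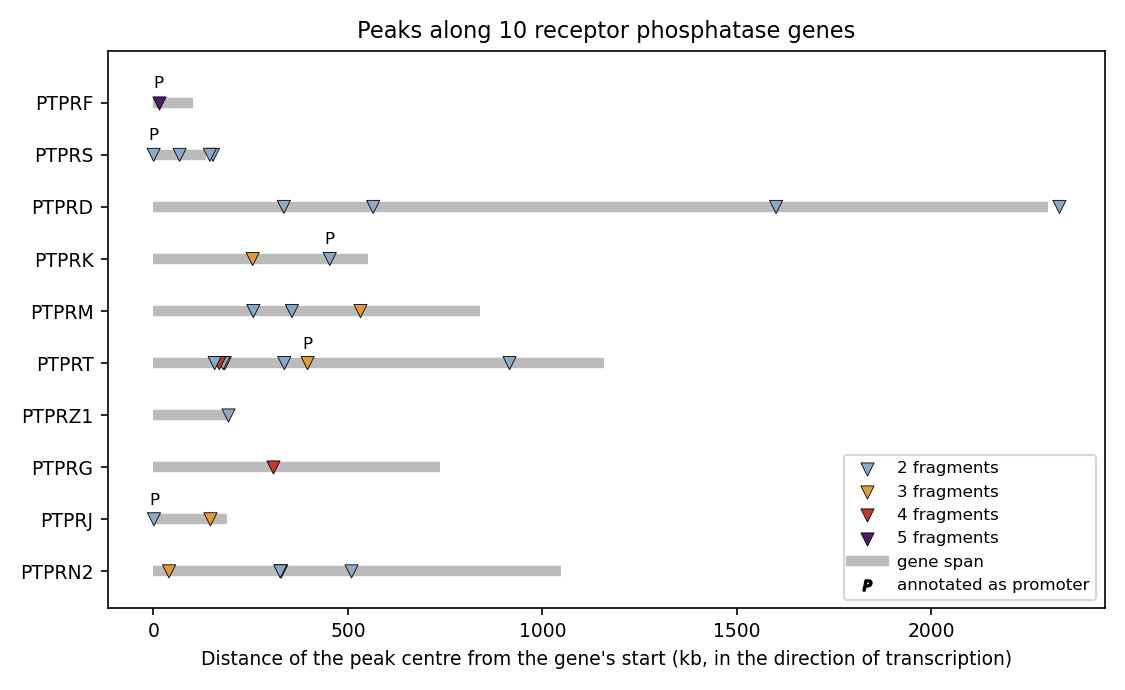
Peaks of crotonate-treated T98G cells along the 10 genes. The x axis gives the distance of each peak centre from the gene's outermost RefSeq start in kb, grey bars are gene spans, triangles are single peaks coloured by recovered fragments, and P marks peaks that the list annotates as promoter. Of the 5 marked peaks, those of PTPRS and PTPRJ stand at the start of the gene, and those of PTPRF, PTPRK and PTPRT lie 13.1, 453.3 and 396.3 kb inside.

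Promoter peaks, by the authors' annotation within 3 kb of a transcript's start, were thus found at 5 of the 10 genes, beside 5.92% of all protein-coding genes. Within 1 kb they were found at 3, PTPRS, PTPRJ and PTPRK, beside 3.18%. PTPRF, picked for a tall peak labelled promoter, is counted in the 5. Each member is longer than 100 kb, whereas the median over all genes was 24.1 kb. No promoter share was computed for genes of the members' length, so nothing is read from these differences. The annotation counts every transcript, and long genes have many. Measured from the gene's outermost start, 2 of the 5 promoter peaks lay within 3 kb, at PTPRS and PTPRJ. Over all protein-coding genes this was so for 30.6% of 1267 promoter peaks.

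Most of the 29 peaks were low, as in the list. The lowest fold enrichment was 2.53, the median 2.73 and the highest 5.09, and the median of all peaks was also 2.73. At the summit, 20 peaks held 2 fragments, 6 held 3, 2 held 4 and 1 held 5. Peaks of 3 or more fragments were 31.0% of the 29 and 25.8% of all peaks. Peaks of 4 or more were 10.3% of the 29, which is 3 peaks, and 2.23% of all peaks. PTPRF, picked for its height, is counted in both shares, so nothing is read from these differences. Peaks of 3 or more fragments were found at PTPRF, PTPRK, PTPRM, PTPRG, PTPRJ and PTPRN2 once each and at PTPRT 3 times, and at none of the peaks of PTPRS, PTPRD and PTPRZ1. A summit of 2 fragments has an exact 95% Poisson interval of 0.242 to 7.22 and one of 3 fragments 0.619 to 8.77, so the order of most single peaks is not resolved. These intervals cover counting error only. The recovered backgrounds ran from 0.0999 to 0.185, with a median of 0.120 at the 29 peaks and over the list.

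**Figure D2:**
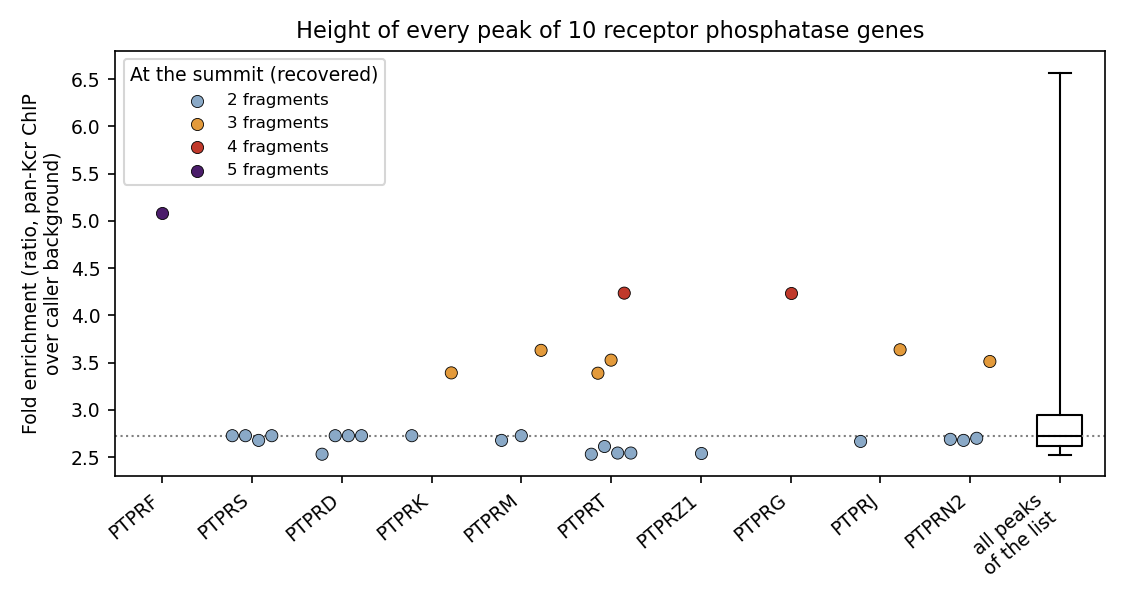
Fold enrichment (y axis, a ratio) of each of the 29 peaks by gene, coloured by recovered fragments at the summit, beside a box of all 10041 peaks (quartiles, whiskers to the lowest and highest) and a dotted line at their median of 2.73. Most points lie at or just below that line, PTPRF stands at 5.09, and PTPRG and the highest peak of PTPRT stand at 4.24.

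**Figure D3:**
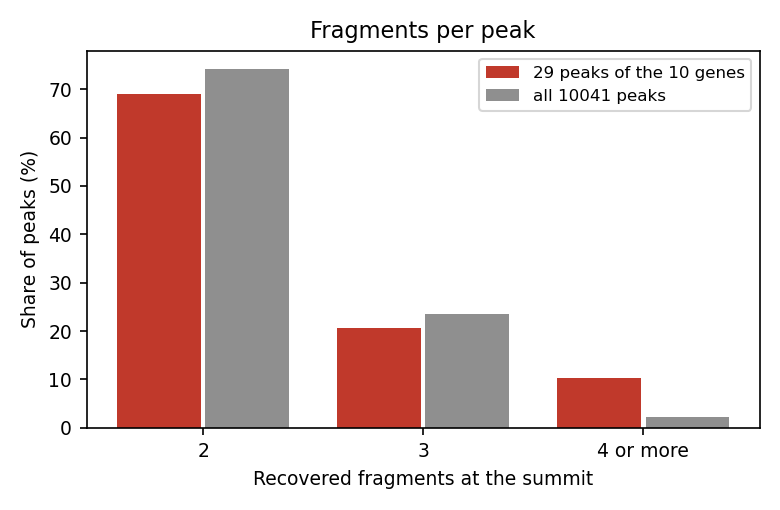
Share of peaks (y axis, %) by number of recovered fragments (x axis), in red for the 29 peaks of the 10 genes and in grey for all 10041 peaks. Summits of 2 fragments make up 69.0% of the 29 peaks and 74.2% of all peaks, and those of 4 or more 10.3% and 2.23%, with PTPRF, picked for its height, among the 3 peaks of the 10 genes.

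Per length of gene, the 10 genes together had 4.0 peaks per Mb (exact 95% Poisson interval 2.68 to 5.75) over 7.25 Mb, and all protein-coding genes had 4.38 per Mb. At the rates of their own chromosomes, taken over genes of all lengths, 37.4 peaks would fall to these genes, and 29 were found. The genes of 500 kb or more had 3.17 peaks per Mb (1.96 to 4.84), beside 3.19 for all genes of that length. Those of 100 to 250 kb, PTPRF, PTPRS, PTPRZ1 and PTPRJ, had 13.0 per Mb (5.61 to 25.6), from 8 peaks, beside 3.78. With only peaks whose centre lies in the RefSeq span, it was 8.12 (2.64 to 18.9), from 5 peaks, beside 3.10. Both rates count the PTPRF peak for which that gene was picked, so nothing is read from their distance to the rates beside them.
Ordered by density, the genes ran from PTPRS with 29.6 peaks per Mb (8.05 to 75.7) through PTPRJ with 10.5, PTPRF with 9.84, PTPRT with 6.04, PTPRZ1 with 5.29, PTPRN2 with 3.81, PTPRK with 3.62 and PTPRM with 3.57 to PTPRD with 1.74 (0.474 to 4.46) and PTPRG with 1.36 (0.0344 to 7.57). Neighbours in this order have overlapping intervals. The value of PTPRZ1 rests on 1 peak beyond the end of the gene, and no peak lay inside it. For 9 of the 10 genes the interval held the rate of the gene's own chromosome. PTPRS was the exception, at 5.58 per Mb for chromosome 19, and with the 2 peaks of its RefSeq span it had 14.8 per Mb (1.79 to 53.4), an interval that holds this rate. The chromosome rate was not recounted by span and still includes peaks outside the spans of their genes. PTPRT had the most peaks and lay on the chromosome with the highest rate among those of the 10 genes, 9.42 per Mb for chromosome 20, where 10.9 peaks would fall to a gene of its length. Copy number, which differs between chromosomes in such a line, was not tested. At the rate of chromosome 9 a gene as long as PTPRD would hold 9.39 peaks, and 4 were found, 3 of them inside the gene. Such chromosome rates are taken over genes of all lengths. Over the whole list, genes of 500 kb or more had 3.19 peaks per Mb, beside 4.38 for all genes. No shortage is therefore read from the counts of PTPRD and PTPRT.
Between families, the 3 LAR family genes had 9 peaks at 3.55 per Mb (1.62 to 6.74), the 3 type IIb genes 12 at 4.71 (2.43 to 8.22), and PTPRZ1 with PTPRG 2 at 2.16 (0.262 to 7.81). The intervals overlap.

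**Figure D4:**
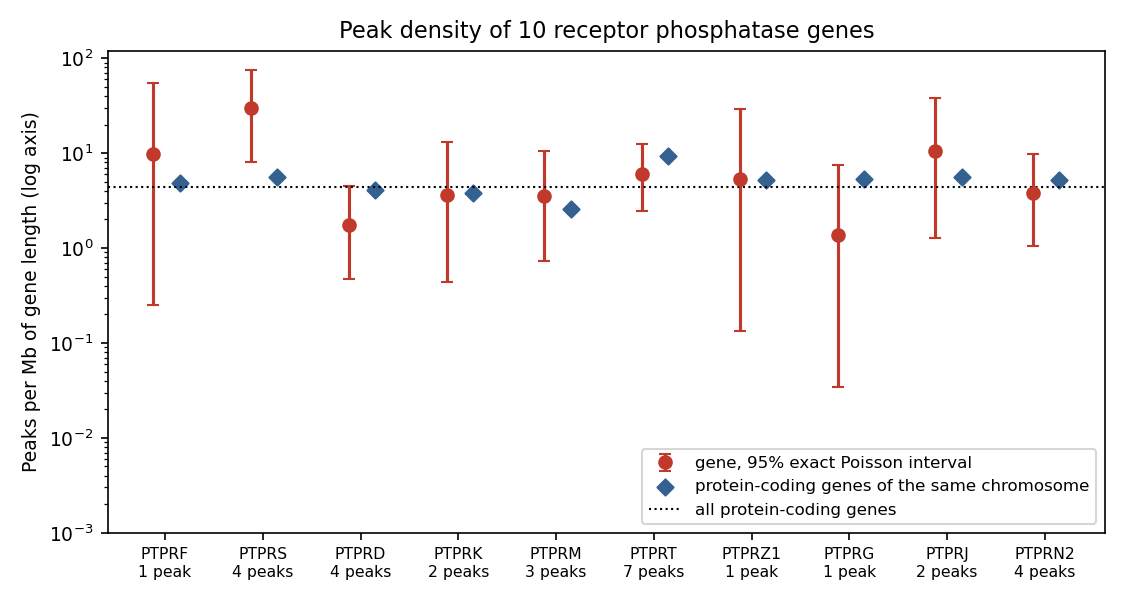
Peaks per Mb of gene length (log y axis) for each gene, as red points with exact 95% Poisson intervals, beside the rate of all protein-coding genes on the same chromosome (blue diamonds) and of all protein-coding genes (dotted line, 4.38 per Mb). The interval of PTPRS, 8.05 to 75.7, lies above its diamond at 5.58, and the other 9 intervals include theirs.

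By position, 21 of the 29 peaks were annotated as intron, 5 as promoter, 1 as exon and 2 as intergenic. The rule admits peaks by the identifier in their annotation, and such peaks lie inside genes. By nearest symbol alone 10 of 17 peaks, 58.8%, were intronic, beside 42.7% of the list. No intronic share was computed for genes of the members' length, so nothing is read from this difference. Of all 21 intronic peaks, 5 lay in the first intron, and the share of first-intron peaks over the list was not computed. Of these 5, 4 were the close group in PTPRT, singled out after its values were seen, and the other lay in PTPRN2.

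The other receptor phosphatases were described in the same way, and each of the 10 had a peak as well. All 20 receptor genes thus had one, beside 19.3% of all protein-coding genes. Of the 20, 17 had a peak inside the gene, a share that was not computed over all genes. PTPRF, picked for its peak, is among them, and the counts were not weighed against gene length, so nothing is read from them. These other 10 genes, with a median length of 148.0 kb, had 11 peaks at 7.21 per Mb (3.60 to 12.9), and 7.22 peaks would fall to them at the rates of their chromosomes. The tallest lay in introns of PTPRB, the phosphatase of vascular endothelium, at 3.64-fold (chromosome 12, 70578885 to 70579249), and of PTPRU, the remaining type IIb receptor, at 3.39-fold (chromosome 1, 29288328 to 29288626). A peak of 3.51-fold nearest to PTPRO, a podocyte receptor (chromosome 12, 15313223 to 15313509), was annotated to an intron of another gene. PTPRE, a receptor close to PTPRA, had an intronic peak at 2.73-fold (chromosome 10, 127973931 to 127974225). Of the 11 peaks 8 held 2 fragments, and 1 gene, PTPRN, the paralog of PTPRN2, had its peak at a promoter.

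Of 34 genes for extracellular ligands and partners, 15 (44.1%) had a peak, and 4 of these one at a promoter, beside 19.3% and 5.92% of all protein-coding genes. The median length of these genes was 104.6 kb, beside 24.1 kb over all genes. PTN and MDK, the pleiotrophin and midkine ligands of PTPRZ1, had none, nor had any of the 6 SLITRK genes, whose proteins bind PTPRS and PTPRD at synapses. These genes were named after their values were seen. Their lack of a peak was not weighed against their length, and nothing is read from it. The tallest peaks lay in introns of NTRK3, a neurotrophin receptor that also binds PTPRS, at 4.24-fold, of the contactin genes CNTN4 and CNTN3 at 3.63-fold, and of GPC6, a glypican, at 3.39-fold. The 34 genes had 4.23 peaks per Mb (2.94 to 5.88), beside 4.38 for all protein-coding genes.
Of 30 intracellular partners and substrates, with a median length of 106.0 kb, 17 (56.7%) had a peak and 8 a promoter peak, beside 19.3% and 5.92% of all protein-coding genes. They had 5.49 peaks per Mb (3.68 to 7.89), beside 4.38. PXN, which encodes paxillin, was nearest to an intergenic peak at 4.55-fold. CDH1, the gene of E-cadherin, had a promoter peak at 3.64-fold. MAGI1, a junction scaffold, had an intronic peak at 2.94-fold, and TRIO, an exchange factor that binds LAR, was nearest to an intergenic one of the same height. No peak was tied to CTNNB1, STAT3, SRC or MET, which was likewise not weighed against their length.
Of 17 non-receptor phosphatases, with a median length of 91.0 kb, 5 (29.4%) had a peak and 2 a promoter peak, beside 19.3% and 5.92% of all protein-coding genes. They had 4.17 peaks per Mb (1.68 to 8.58), beside 4.38. PTPN4 was nearest to an intergenic peak at 3.42-fold. PTPN14, which acts on YAP signaling, had an intronic peak at 3.39-fold, PTPN21 an intronic one at 2.73-fold and PTPN23, an endosomal protein, a promoter peak at 2.62-fold. Lists of long genes hold more genes with a peak, so the 4 counts were not compared with each other, and nothing is read from their distance to the shares over all genes.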

How the data were processed

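The deposited file is the authors' peak list of the crotonate pan-Kcr ChIP library. It gives, as made by the authors, a fold enrichment (a ratio over the caller's background), a −log10 p and a −log10 q for each peak, with length, summit, annotation and nearest gene. The aligner, peak caller, threshold and build were not given in the sources used here. Of its miRNA genes, 117 of 117 matched by symbol have the start and end of GRCh38.p14, so gene spans and promoters of that assembly (RefSeq) were used. The depth of the libraries was not counted from reads.

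The 10 members and the other lists were chosen with earlier results of these data known. Annotation identifiers that the list never pairs with a symbol were tied to a protein-coding gene only where each of their peaks lay in the span of that gene alone (510 of 922). Fragments were recovered from fold = (fragments + 1)/(background + 1) and the Poisson p. That the caller used these formulas is assumed, as the caller was not given. Simulated peaks were made with the same formulas, so they check the arithmetic and not the assumption. Over the list the −log10 p came back within 6.52e-05. Gene length is the RefSeq span. Intervals are exact at 95%. All members are named, and of each other list up to 4 genes with the tallest peaks; further genes named in the ligand, substrate and phosphatase lists were chosen after their values were seen. Alternatives varied the tie to a gene, height, window, length and reference rate. Computation used scipy 1.17.1, pandas 2.3.3 and numpy 2.4.6 under Python 3.11.15, and plots matplotlib 3.10.9.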

Additional observations from a re-analysis of the deposited data

How the results depend on the processing

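With the nearest-gene symbol alone the 10 genes had 17 peaks (2.35 per Mb), PTPRS had 1 and PTPRG had none. Keeping peaks at or above the median fold enrichment also left 17 (2.35 per Mb), and peaks of 3 or more fragments, an alternative chosen after seeing the data, left 9. Relative to all protein-coding genes treated alike, the density was 0.912 times, and 0.669 to 1.10 times under 5 alternatives, of which the peaks inside the gene and leaving out PTPRT were added after seeing the data; each lay within the counting interval. Members with a promoter peak numbered 3 with a 1 kb window, and 2 within 3 kb of the gene's outermost start, a choice made after seeing the data. A 5 kb window, merging peaks within 1 kb, flanks of 5 kb and fragments in place of fold enrichment moved no count by more than 1.5 times. Of 12 alternatives for the other lists, 6 moved a count by more than 1.5 times, each downwards, as fewer peaks were kept. No paired analysis was possible because a single ChIP library holds all peaks. Most of the 29 peaks rest on 2 fragments, which limits what single heights show.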
